A study of Mus musculus with 15 samples.

Results

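Angptl4, Pdk4, Plin2 and Ucp2 are textbook targets of the nuclear receptor PPAR-delta, and they were chosen by name as 4 of the 17185 genes in the count table of single cells from mouse intestine. They were read as 4 rows of that table, summed per mouse, organ and stem cell call. Cells came from 3 organs of 5 mice aged 6 months, namely the small intestine in its proximal and its distal part and the colon, which gives 15 samples. The high fat diet group held 3 mice on a diet with 60% of kcal from fat, and the control diet group held 2 mice on a purified diet with 10% of kcal from fat and matching sucrose. All mice, in both groups, carried the strain label Lgr5-eGFP-IRES-CreERT2, an allele that places a green fluorescent protein under the promoter of the stem cell gene Lgr5. The authors marked each cell as stem or not stem. In all 18919 cells that mark was the same as at least 1 count of Lgr5 or eGFP, so the 4618 marked cells are called stem-called here and the other 14301 uncalled.

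PPAR-delta is a receptor in the nucleus that binds fatty acids and, paired with a retinoid X receptor (RXR), switches on genes for the uptake, transport and burning of fat. In intestinal stem and progenitor cells of mice it is known for linking dietary fat to fatty acid oxidation. Angptl4 encodes a secreted inhibitor of lipoprotein lipase, the enzyme that frees fatty acids from circulating fat particles. Pdk4 encodes a mitochondrial kinase that shuts down pyruvate dehydrogenase, which saves glucose when fat is burned. Plin2 encodes a coat protein of lipid droplets, and Ucp2 a carrier of the inner mitochondrial membrane. The 4 genes are also targets of the related receptor PPAR-alpha in several tissues, and Angptl4 and Pdk4 are known to respond to glucocorticoids and to low oxygen too.

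The libraries differed in depth. The sums of stem-called cells ranged from 321496 UMIs (unique molecular identifiers, each counting 1 captured RNA molecule) in the colon of high fat diet mouse 2, which had 27 such cells, to 13694552 UMIs in the proximal small intestine of control mouse 2. High fat diet mouse 3 and control mouse 2 had the highest sums within their diets and are called the deeper pair. In proximal stem-called cells, however, that mouse 3 (4862109 UMIs) was shallower than control mouse 1 (8240251 UMIs). On the high fat diet, mouse 1 stood apart in its proximal library. Of the 1079 cells there, 815 fell in a cluster of shallow cells that could not be named and that came to 99.4% from high fat diet mice, so values without this mouse are given where they move. Over all genes and libraries, 47183 pairs of gene and library were at 0 but only 94 had counts in a single cell, as if rarely seen genes had been set to 0 per library before deposit, so a whole library at 0 gives no limit on a level. This holds for Pdk4 in the distal small intestine of control mouse 2 and for Angptl4 in the colon of high fat diet mouse 2.

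In the proximal small intestine, all 4 genes were higher in each of the 3 high fat diet mice than in either control mouse, in stem-called and in uncalled cells alike. In the means of stem-called cells Angptl4 was 6.75-fold and Pdk4 8.48-fold higher, and Plin2 1.24-fold and Ucp2 1.35-fold. None of the 4 passed an adjusted p of 0.05 in the model of all samples. Of all genes tested, 7.31% were higher without overlap in stem-called cells and 5.98% in uncalled cells.

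**Figure D1:**
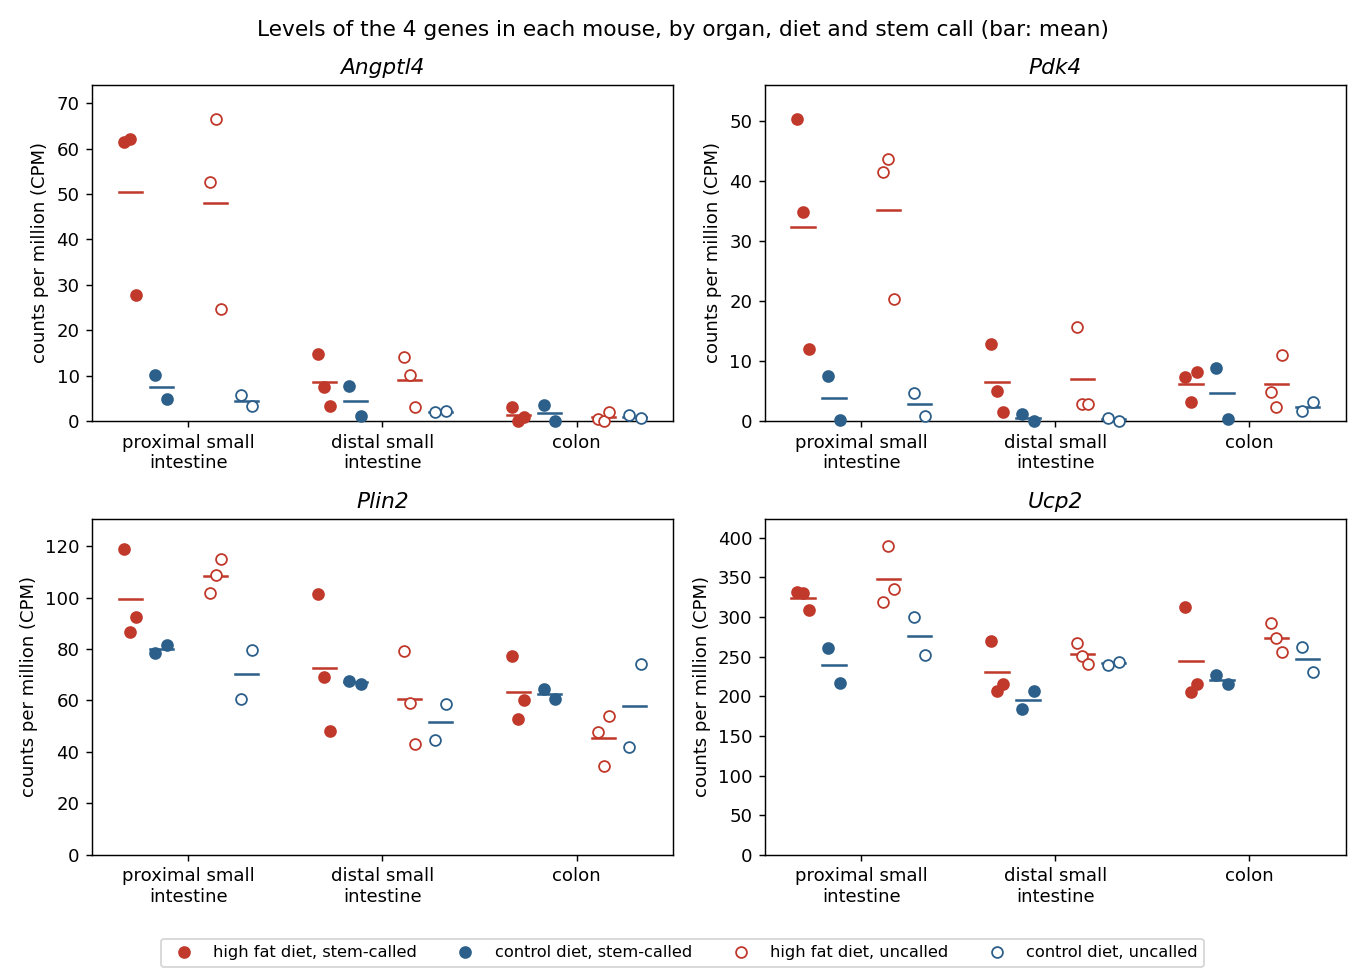
CPM (counts scaled to 1000000 UMIs per sum, vertical axes, each starting at 0) of the 4 genes in each mouse by organ, with filled points for stem-called and open points for uncalled cells, high fat diet in red and control diet in blue, and a bar at each group's mean. In the proximal small intestine every red point lies above every blue point of the same population. In the colon the diets overlap for each gene.

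Angptl4 lies on chromosome 17 at 33774900 to 33781575 (GRCm38). In proximal stem-called cells it stood at 61.4, 62.1 and 27.8 CPM in high fat diet mice 1, 2 and 3, against 10.2 and 4.75 CPM in control mice 1 and 2. The lowest high fat diet mouse, mouse 3, was still above the higher control mouse. The means were 50.4 ± 19.6 CPM (SD, n = 3) on the high fat diet and 7.47 ± 3.85 CPM (SD, n = 2) on the control diet. The fitted log2 fold change was 2.81 (SE 0.76), with an unadjusted p of 0.00225 and an adjusted p of 0.411 over 12339 genes by the quasi-likelihood test of edgeR, which ranked Angptl4 67th by p. Uncalled proximal cells had 52.6, 66.5 and 24.7 CPM in high fat diet mice, against 5.68 and 3.25 CPM in control mice. That is a ratio of 10.7 in the means and a log2 fold change of 3.49 (SE 0.71, edgeR adjusted p = 0.178, rank 24 of 14307).

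Whether Angptl4 passed the threshold hung on the model. In stem-called cells the edgeR adjusted p was 0.00986 with a term marking the deeper pair and 0.0397 in a fit of the proximal samples alone. It did not pass when any high fat diet mouse was left out. The term marks only high fat diet mouse 3 and control mouse 2, which does not follow depth in these sums. The cell table numbers the control mice 1 and 3. A block on those numbers, chosen after seeing the data, gave 2.67 with an edgeR adjusted p of 0.00406 for Angptl4. Within the deeper pair of mice the log2 ratio was 2.32, and among the other 3 mice it was 2.49, each with 1 CPM added. In uncalled cells the adjusted p was 0.0103 by edgeR without high fat diet mouse 3, 0.0495 in a fit of the proximal samples alone, and 0.000414 by DESeq2.

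Pdk4 lies on chromosome 6 at 5483351 to 5496278. Proximal stem-called cells had 50.2, 34.8 and 11.9 CPM in high fat diet mice, against 7.40 and 0.219 CPM in control mice. Mouse 3 was again the lowest of the high fat diet mice, and control mouse 2 had only 3 counts of Pdk4. The means were 32.3 ± 19.3 CPM (SD, n = 3) on the high fat diet and 3.81 ± 5.08 CPM (SD, n = 2) on the control diet. The log2 fold change was 3.21 (SE 1.15, unadjusted p = 0.0137, adjusted p = 0.936 by edgeR). It was 7.05 without control mouse 1 and 2.16 without control mouse 2, so its size rests on which control is used. With the mouse number of the cell table as a block it was 3.64 with an edgeR adjusted p of 0.041. In uncalled proximal cells the gene stood at 41.5, 43.6 and 20.3 CPM in high fat diet mice, against 4.68 and 0.907 CPM in control mice, with a log2 fold change of 3.76 (SE 1.04, edgeR adjusted p = 0.732, DESeq2 adjusted p = 0.0342).

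Plin2, on chromosome 4 at 86626910 to 86670217, had 119, 86.7 and 92.6 CPM in proximal stem-called cells of high fat diet mice, against 78.4 and 81.7 CPM in control mice. High fat diet mouse 2 and control mouse 2 were the closest. The log2 fold change was 0.34 (SE 0.25, edgeR adjusted p = 1), and 0.16 without high fat diet mouse 1. The gap was wider in uncalled cells, which had 102, 109 and 115 CPM on the high fat diet, against 60.4 and 79.8 CPM on the control diet, with a log2 fold change of 0.67 (SE 0.28, unadjusted p = 0.0365, edgeR adjusted p = 1). The diet effect in stem-called cells was 0.38 (log2, SE 0.23) below that in uncalled cells, and the test of that difference gave an edgeR adjusted p of 1.

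Ucp2 lies on chromosome 7 at 100493337 to 100499629. Proximal stem-called cells had 332, 330 and 310 CPM in high fat diet mice, against 262 and 216 CPM in control mice. The high fat diet mice lay close together and the controls further apart. The means were 324 ± 12.3 CPM (SD, n = 3) on the high fat diet and 239 ± 31.9 CPM (SD, n = 2) on the control diet, and the log2 fold change was 0.48 (SE 0.18, unadjusted p = 0.0191, edgeR adjusted p = 1). Uncalled cells had 319, 390 and 335 CPM, against 300 and 252 CPM, with a log2 fold change of 0.38 (SE 0.14, edgeR adjusted p = 1).

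Counted per cell, Angptl4 and Pdk4 were seen in more proximal cells on the high fat diet. At their deposited depth, 24.9%, 49.4% and 28.6% of proximal cells carried an Angptl4 UMI in high fat diet mice 1, 2 and 3, against 7.78% and 6.61% in control mice. The shares for Pdk4 were 18.4%, 34.4% and 19.3%, against 5.29% and 0.885%. With each stem-called cell thinned to 3000 UMIs, 17.5%, 14.7% and 7.89% of cells carried Angptl4 in high fat diet mice, against 2.31% and 1.95% in control mice. For Pdk4 these shares were 10.05%, 11% and 2.63%, against 1.32% and 0%. Plin2 was nearly level between the diets, at 22.22%, 23.67% and 23.36%, against 21.32% and 22.2%. Ucp2 was at 58.2%, 65.3% and 59.2%, against 51.9% and 44.9%. Thinning kept 189 of 207, 300 of 302 and 304 of 304 stem-called cells in high fat diet mice, and 605 of 606 and 617 of 617 in control mice.

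The promoter windows of Pdk4 and Plin2 are shown because Pdk4 was among the most diet-separated of the 4 genes and Plin2 carries the matches found to the searched motifs. They run 5′ to 3′ along the gene from 250 bases before to 50 bases after the annotated start, from RefSeq on GRCm38.p6, with motif matches in capitals. Pdk4 is at chr6:5496229-5496528 and Plin2 at chr4:86670010-86670309, both on the minus strand. The start used for Plin2 lies inside the outer end of the gene given above. RefSeq windows were matched for 3 of the 4 genes, and Angptl4 is named only.
Pdk4: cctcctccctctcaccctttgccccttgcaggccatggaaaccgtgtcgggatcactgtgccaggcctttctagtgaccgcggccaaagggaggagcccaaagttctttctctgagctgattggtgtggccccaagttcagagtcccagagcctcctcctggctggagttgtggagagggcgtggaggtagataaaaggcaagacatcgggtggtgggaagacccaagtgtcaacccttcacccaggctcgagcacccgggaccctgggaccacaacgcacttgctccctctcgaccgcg
Plin2: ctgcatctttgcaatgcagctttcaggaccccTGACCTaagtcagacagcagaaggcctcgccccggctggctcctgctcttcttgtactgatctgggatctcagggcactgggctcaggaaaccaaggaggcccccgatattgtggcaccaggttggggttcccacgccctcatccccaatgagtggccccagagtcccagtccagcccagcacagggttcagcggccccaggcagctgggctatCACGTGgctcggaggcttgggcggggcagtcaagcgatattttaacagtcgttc
The motifs searched on both strands were the PPAR and RXR direct repeat AGGTCANAGGTCA (N is any base), its half-site AGGTCA and the hypoxia core ACGTG. The direct repeat was in none of the 3 windows, and 0.0396% of 32851 promoter windows of this length hold it. Plin2 holds 1 half-site, which starts 218 bases before the start and lies on the minus strand of the window, as do 16.3% of all windows. Plin2 also holds the core ACGTG on both strands, overlapping in the palindrome shown, which runs across the start, and 19.6% of all windows hold that core. Pdk4 and Ucp2 held neither. A match describes letters in this window and not binding.

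In the distal small intestine the diets overlapped for Plin2 and Ucp2 in both populations and for Angptl4 in stem-called cells. The levels of Angptl4 and Pdk4 on the high fat diet were below those of the proximal part in each mouse. Among stem-called cells only Pdk4 was higher in each high fat diet mouse than in either control mouse, where 7.98% of all genes were. Among uncalled cells both Angptl4 and Pdk4 were, where 9.56% of all genes were. No member passed the edgeR threshold in either population. In all, 1 gene of 12339 passed in stem-called cells (0.00810%) and 1 gene of 14307 in uncalled cells (0.00699%).

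Distal stem-called cells had 14.8, 7.46 and 3.37 CPM of Angptl4 in high fat diet mice 1, 2 and 3, against 7.70 and 1.01 CPM in control mice 1 and 2. Its log2 fold change was 1.50 (SE 0.94, edgeR adjusted p = 1) and 0.02 without control mouse 2. Pdk4 had 12.9, 4.98 and 1.43 CPM, against 1.10 and 0 CPM. Its control sum holds 2 counts, all from control mouse 1. The fitted log2 fold change of 5.08 (SE 1.95, edgeR adjusted p = 1) thus depends on the library of control mouse 2, listed at 0. Without control mouse 2 it was 2.37. Plin2 had 101, 69.0 and 47.9 CPM, against 67.7 and 66.6 CPM, and mouse 3 lay below both controls. Ucp2 had 270, 206.5 and 216 CPM, against 184 and 207 CPM.

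Distal uncalled cells had 14.2, 10.1 and 3.18 CPM of Angptl4 in high fat diet mice, against 1.99 and 2.17 CPM in control mice, with a log2 fold change of 2.02 (SE 0.71, unadjusted p = 0.0142, edgeR adjusted p = 1). Pdk4 had 15.6, 2.81 and 2.79 CPM, against 0.543 and 0 CPM. Its DESeq2 adjusted p was 0.0238, where edgeR gave 1. In the distal as in the proximal small intestine, mouse 3 was the lowest of the high fat diet mice for both genes, and it was also the deepest of them. Plin2 ranged from 43.2 to 79.1 CPM on the high fat diet and stood at 44.5 and 58.5 CPM on the control diet. Ucp2 ranged from 240.4 to 267.5 CPM, against 239.5 and 243 CPM.

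In the colon the diets overlapped for all 4 genes in both populations, where 5.87% of genes in stem-called and 6.77% in uncalled cells were higher without overlap. Stem-called cells had 3.07, 0 and 0.926 CPM of Angptl4 in high fat diet mice, against 3.55 and 0 CPM in control mice, on 9 and 6 counts in all. Pdk4 had 7.36, 3.11 and 8.10 CPM, against 8.87 and 0.390 CPM. Plin2 ranged from 52.9 to 77.3 CPM on the high fat diet, against 60.5 and 64.5 CPM, and Ucp2 from 205 to 313 CPM, against 215 and 226.5 CPM. The edgeR fits of these 2 comparisons called 0 genes at an adjusted p of 0.05, while 314 (2.54%, stem-called) and 492 (3.44%, uncalled) had an unadjusted p under 0.05 and DESeq2 called 0 and 5. For the members, edgeR log2 fold changes in the colon lay between -0.39 (Plin2, uncalled) and 1.39 (Pdk4, uncalled), each with an unadjusted p of 0.18 or more.

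**Figure D2:**
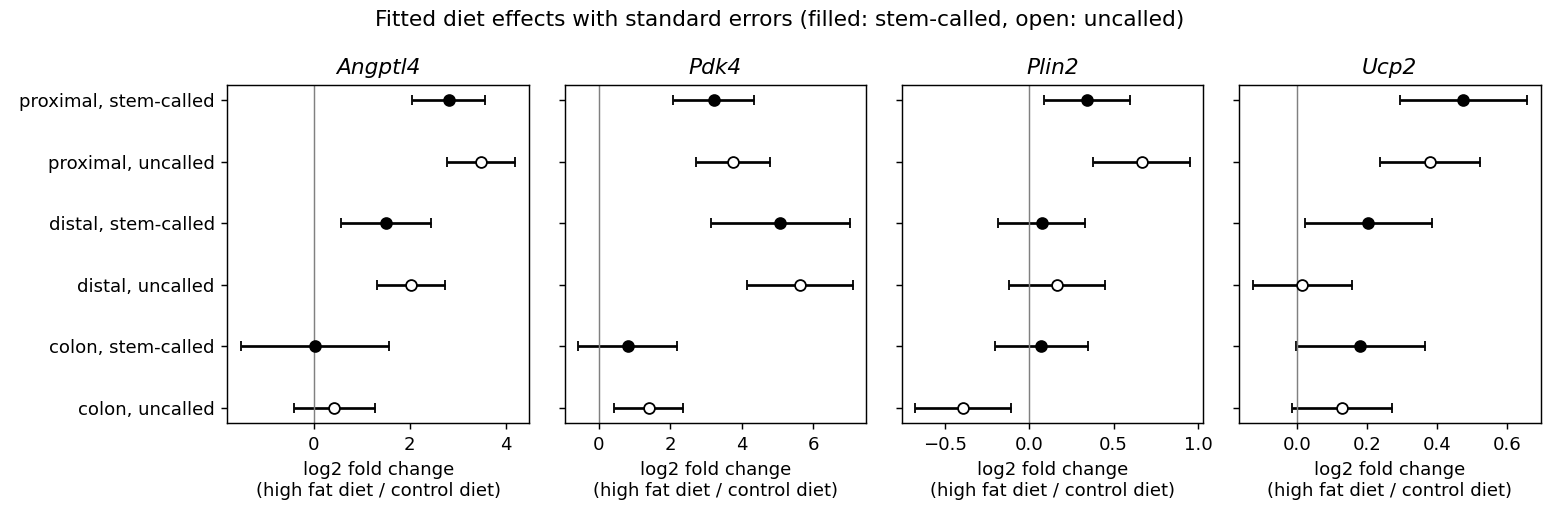
Fitted log2 fold changes of high fat over control diet (horizontal axes, positive means higher on the high fat diet) with 1 standard error on each side, by organ and population, for the 4 genes. Angptl4 and Pdk4 lie above 2.8 in both proximal populations, while Plin2 and Ucp2 stay below 0.7 in all 6 rows. The axes differ in range, and Pdk4 in the distal rows rests on a control library listed at 0.

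The diet effect itself was compared between the proximal and distal small intestine in stem-called cells. The fitted difference was 1.31 (SE 1.19) for Angptl4, 0.27 (SE 0.36) for Plin2 and 0.27 (SE 0.25) for Ucp2 on the log2 scale. For Angptl4 it was -2.66 with counts thinned to 3000 UMIs per cell and the stem call remade on them. It was 0.41 without control mouse 1 and 2.33 without control mouse 2. For Pdk4 the difference was -1.87 (SE 2.32), and the distal control library at 0 enters that value. No member and no other gene passed this test in edgeR, with an adjusted p of 1 for all 4, while 178 genes (1.44%) had an unadjusted p under 0.05 and DESeq2 called 4 genes. For the 4 genes, a difference in diet effect between the proximal and distal part was not detectable by edgeR with these mice.

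Angptl4, Pdk4 and Ucp2 were higher in the proximal than in the distal small intestine once each mouse was compared with itself. Averaged over the diets, stem-called cells of the proximal part were above those of the distal part by 1.95 (SE 0.58) for Angptl4, 3.31 (SE 1.10) for Pdk4, 0.33 (SE 0.18) for Plin2 and 0.36 (SE 0.13) for Ucp2 on the log2 scale. In the model without a block no member passed (edgeR adjusted p of 0.0735, 0.119, 0.499 and 0.143), where 5.46% of genes did. The organs come from the same 5 mice, and with the mouse as a block Angptl4 (1.98, adjusted p = 0.00033), Pdk4 (2.60, adjusted p = 0.00652) and Ucp2 (0.36, adjusted p = 0.0131) were higher in the proximal part by edgeR. Plin2 was at 0.36 with an edgeR adjusted p of 0.0586. That fit with the mouse as a block called 1336 of 12339 genes, against 674 without the block. The distal library of control mouse 2, listed at 0 for Pdk4, enters both Pdk4 values, so their size is uncertain.

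Against the small intestine, Angptl4 was lower in the colon by a log2 difference of -2.71 (SE 0.75, edgeR adjusted p = 0.0183), where 18.0% of genes passed. The adjusted p was 0.000282 with the mouse as a block. It was 0.0737 or 0.0526 when mouse 2 or mouse 3 of the high fat diet was left out. The difference was -0.97 (edgeR adjusted p = 0.987) with counts thinned to 3000 UMIs per cell and the stem call remade on them. Without control mouse 1 the remaining control colon sum of stem-called cells holds 0 Angptl4 counts, so that fit gives no size for the difference. Uncalled cells of that library hold 10 counts. Pdk4 did not follow Angptl4 there, with 0.67 (SE 0.90, adjusted p = 0.731), and neither Plin2 (-0.34, SE 0.17, adjusted p = 0.206) nor Ucp2 (-0.08, SE 0.11, adjusted p = 0.725) passed by edgeR. The distal control library listed at 0 for Pdk4 enters its value here too. With the mouse as a block Plin2 was at -0.32 with an edgeR adjusted p of 0.0457. That fit called 3281 of 12339 genes, against 2225 without the block. Mean Angptl4 in stem-called cells of the high fat diet was 50.4 CPM in proximal, 8.55 CPM in distal and 1.33 CPM in colon samples. Proximal and distal values did not overlap, while the highest colon value (3.07 CPM) lay just under the lowest distal one (3.37 CPM) and another colon library is listed at 0. On the control diet it was 7.47, 4.36 and 1.77 CPM, and neighbours overlapped. Mean Pdk4 was 32.3, 6.42 and 6.19 CPM on the high fat diet and 3.81, 0.551 and 4.63 CPM on the control diet, and neighbouring organs overlapped on both diets, as did the colon and the proximal part on the control diet.

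Stem-called cells did not stand out from uncalled cells for 3 of the genes. With each library as its own block, Angptl4, Pdk4 and Plin2 differed by between -0.15 and 0.33 on the log2 scale, each with an edgeR adjusted p of 0.113 or more. Ucp2 was lower in stem-called cells in all 3 organs, by a log2 difference of -0.22 (SE 0.07, adjusted p = 0.027) in proximal, -0.25 (SE 0.07, adjusted p = 0.0116) in distal and -0.22 (SE 0.08, adjusted p = 0.0344) in colon samples by edgeR. In each organ stem-called Ucp2 was below uncalled Ucp2 in 4 of 5 mice. High fat diet mouse 1 went the other way in all 3. Its stem-called and uncalled values were 332 and 319 CPM in proximal, 269.9 and 267.5 CPM in distal and 313 and 292.5 CPM in colon samples. Between 33.4% (proximal) and 41.3% (colon) of all genes passed this test, with 40.2% in the distal part, so that such a call is common. It was lost in each organ when some single mice were left out (highest adjusted p of 0.169 in proximal, 0.112 in distal and 0.188 in colon samples), and without TMM scaling in the proximal part (0.0913) and the colon (0.106). The diet effects of stem-called and uncalled proximal cells differed by -0.64 (SE 0.46) for Angptl4, -0.38 (SE 0.70) for Pdk4 and 0.07 (SE 0.14) for Ucp2, all with an edgeR adjusted p of 1. That test called 0 genes in each organ by edgeR, with 2.17% of genes in proximal, 2.06% in distal and 5.01% in colon samples at an unadjusted p under 0.05, and DESeq2 called 1, 0 and 0.

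Cells were grouped into 28 clusters without using the 4 genes, of which 6 (20.5% of cells) could not be named after marker genes. Angptl4 and Pdk4 were higher on the high fat diet in each kind of proximal epithelial cell with enough cells on both diets, though some kinds held few counts. In absorptive-like cells, the mature fat-absorbing kind, Angptl4 had 63.9, 94.3 and 32.0 CPM in high fat diet mice, against 3.31 and 4.10 CPM in control mice. In intestinal stem-like cells it had 68.8, 66.8 and 27.9 CPM, against 11.3 and 5.38 CPM. Dividing transit-amplifying-like cells had 71.0, 59.0 and 24.2 CPM, against 4.82 and 3.49 CPM.

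These classes were described and not tested, since the clusters were rebuilt from the same cells. Most proximal absorptive-like cells of the high fat diet sat in cluster 9, whose cells came to 95.8% from that diet, and most of the control diet in cluster 15, with 11.0%. Pdk4 in absorptive-like cells had 56.8, 44.1 and 22.2 CPM in high fat diet mice, against 5.88 and 1.21 CPM in control mice. Plin2 was highest in this class, at 189, 166 and 178.5 CPM in high fat diet mice, against 83.0 and 118.5 CPM in control mice. In stem-like cells it had 103, 78.6 and 86.5 CPM, against 70.0 and 80.6 CPM, and there the diets overlapped.

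Goblet-like and enteroendocrine-like cells are secretory kinds. Proximal goblet-like cells, which make mucus, had 25.0 and 5.97 CPM of Angptl4 in high fat diet mice 2 and 3, against 0 and 0.522 CPM in control mice. The control values rest on 1 count of Angptl4 and 3 of Pdk4. Their Pdk4 stood at 41.6 and 7.29 CPM, against 3.18 and 0 CPM. In enteroendocrine-like cells, the hormone-making kind, Angptl4 had 38.9 and 9.71 CPM in high fat diet mice 2 and 3. Control mice had 2.31 and 4.98 CPM, on 4 counts in all. Pdk4 there had 31.9 and 40.5 CPM in the same high fat diet mice, against 4.62 and 21.6 CPM in control mice. Mouse 1 gave too few cells of either kind. Proximal tuft-like cells gave only 1 sum per diet, with 2 counts of Angptl4 and 3 of Pdk4 on the high fat diet. The control sum held 0 of each.

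T cell-like cells, which are no epithelial cells, also held Angptl4 and Pdk4 UMIs, on few counts. Proximal T cell-like cells had 32.2, 71.6 and 16.3 CPM of Angptl4 in high fat diet mice, on 4, 29 and 6 counts, against 9.82 and 7.95 CPM in control mice, on 5 and 4 counts. Pdk4 had 80.5, 29.6 and 21.7 CPM in them, against 1.97 and 0 CPM. Ucp2 had 330, 415 and 421 CPM, against 263 and 227 CPM. Thinned to 3000 UMIs, 10.0%, 13.8% and 4.76% of T cell-like cells of high fat diet mice carried Angptl4 (2 of 20, 4 of 29 and 1 of 21 cells), against 4.17% and 4% in control mice (2 of 48 and 1 of 25 cells). At this depth high fat diet mouse 3 was level with the control mice. Of absorptive-like cells in the same high fat diet mice, 16.7%, 23.9% and 10.2% did. Their median depths were 5562, 15100 and 17550 UMIs in T cell-like and 20480, 13910 and 15910 UMIs in absorptive-like cells. How much of the signal in any class is RNA freed from other cells was not tested.

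**Figure D3:**
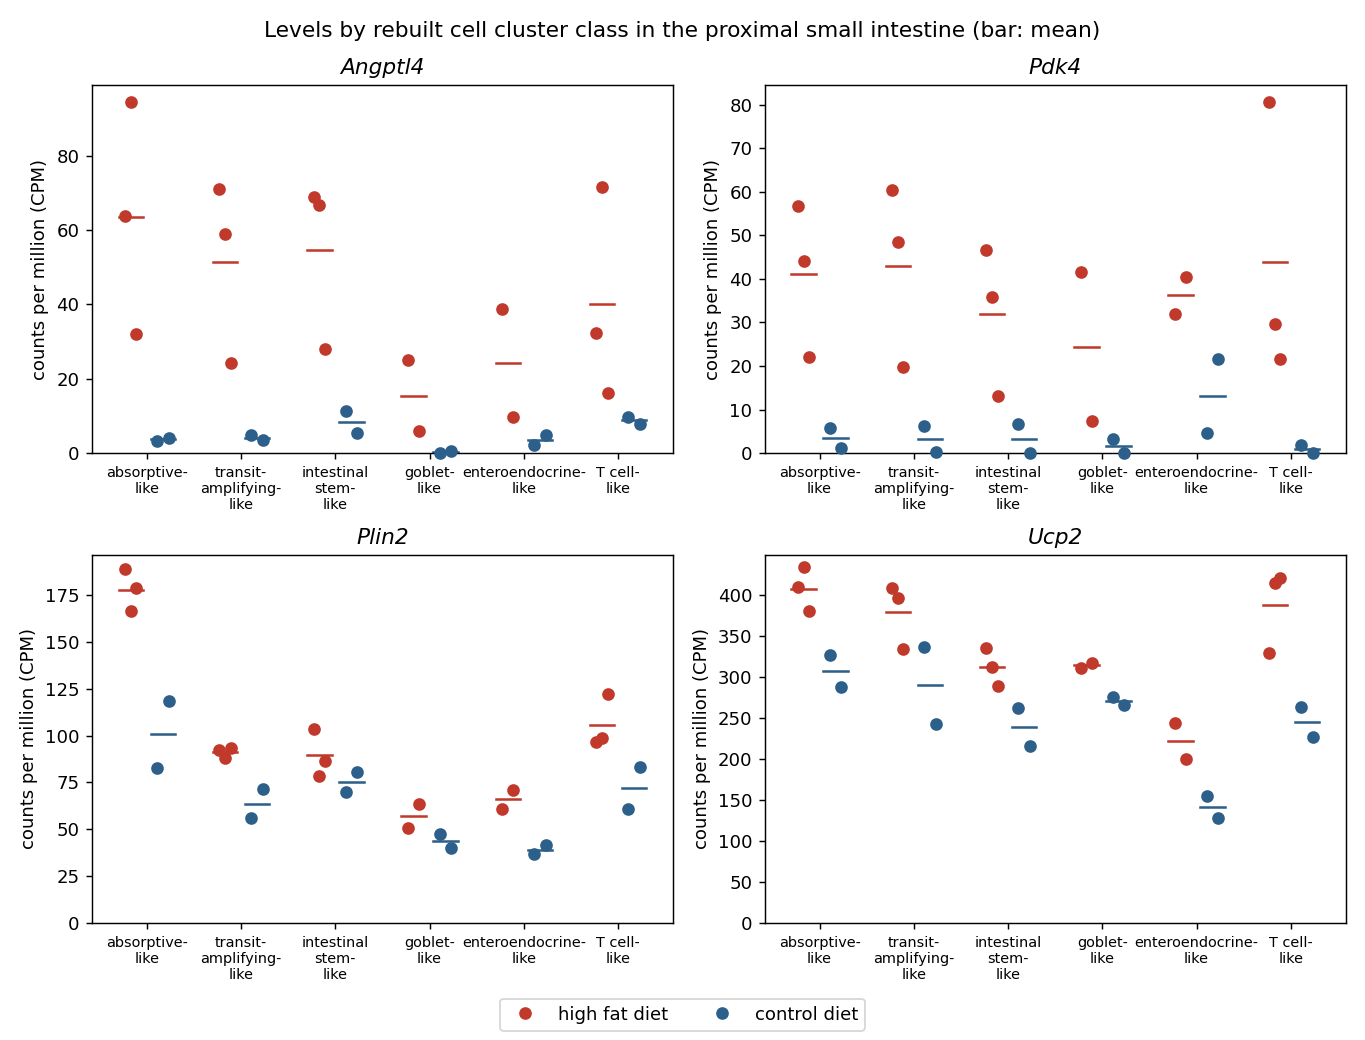
CPM of the 4 genes in 6 named cell classes of the proximal small intestine (vertical axes start at 0), with 1 point per mouse with at least 20 cells of the class, high fat diet in red, control diet in blue and a bar at each mean. Angptl4 and Pdk4 lie higher on the high fat diet in each class shown, T cell-like cells included. Plin2 is highest in absorptive-like cells.

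Markers of other cell types were summed in the proximal stem-called sums. T cell markers (11 of 11 in the table) summed to 65.2 to 195 CPM in high fat diet mice and 74.9 to 194.5 CPM in control mice. The 11 absorptive markers summed to 1390 to 2018 CPM, against 1478 to 1493 CPM. The 2 adipocyte markers in the table, of 6 listed, summed to 2.15 to 3.77 CPM, against 0.657 to 0.728 CPM, with 1 of the 2 at 0, and the B and plasma cell markers (8 of 9) to 143 to 242 CPM, against 281 to 386 CPM. The 7 of 8 Paneth markers in the table summed to 127 to 335 CPM in high fat diet mice and 627.5 to 1331 CPM in control mice, without overlap. The 9 enteroendocrine markers summed to 202 to 243.5 CPM, against 98.9 to 122 CPM, and the 9 tuft markers to 100.2 to 148 CPM, against 76.2 to 76.8 CPM, also without overlap. The part of any of these lists in the results above was not tested.

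Several other PPAR targets rose in the proximal small intestine of the high fat diet mice. Their list was chosen with earlier results of these data known, so its counts and medians are a description and no independent test. Of 33 tested genes of a list of 42 in stem-called cells, 8 rose on the high fat diet by edgeR, 0 fell, and 32 had a log2 fold change above 0, with a median of 1.07 against 0.00 over all genes. Of all genes 0.122% passed, 0.113% as higher. Among those with the lowest adjusted p were Creb3l3, a fat-sensing transcription factor (4.49, adjusted p = 0.00013), Mgll, a monoacylglycerol lipase (3.97, 0.00113), Acadl, an acyl-CoA dehydrogenase of fat oxidation (1.82, 0.00209), malic enzyme Me1 (4.03, 0.00209) and the acyl-CoA thioesterase Acot2 (2.59, 0.00328). In uncalled cells 6 of 35 rose, 0 fell and the median was 1.21, with 0.0839% of all genes called, 0.0769% as higher. In the distal part 1 of 33 rose in stem-called cells, with a median of 0.58 and 0.00810% of all genes called, and 1 of 35 in uncalled cells, with a median of 0.53 and 0.00699% of all genes called. In the colon 0 of 33 passed by edgeR in stem-called cells, with a median of 0.15 and 3 at an unadjusted p under 0.05, where 2.54% of all genes were. Without control mouse 1 edgeR called 6 genes in all in the proximal stem-called comparison, against 15 with it.

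In the lists of genes around the 4 genes Mgll alone passed, and it is also in the list of other PPAR targets. None of 13 genes around pyruvate dehydrogenase passed in proximal stem-called cells (median 0.05, 0 at an unadjusted p under 0.05), including the sister kinase Pdk1, at 67.2 ± 5.6 CPM on the high fat diet and 66.6 ± 14.5 CPM on the control diet. Its most abundant members were Pdha1, a subunit of the enzyme (0.11, SE 0.17), and Dld (0.16, SE 0.17). None of 5 tested genes of lipoprotein lipase control passed (median -0.01), and Lpl itself was at 0 in each of these sums. Among 14 genes of lipid droplets and their breakdown Mgll alone rose, with a median of 0.23. None of 7 uncoupling proteins and related carriers passed (median 0.19), and none of 10 receptors and cofactors did. Ppard, which encodes PPAR-delta, averaged 53.7 ± 5.98 CPM on the high fat diet and 83.8 ± 3.03 CPM on the control diet (log2 fold change -0.61, SE 0.18, unadjusted p = 0.00426, edgeR adjusted p = 0.554).

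Genes that answer to other known inducers of Angptl4 and Pdk4, or to tissue dissociation, were read from 3 more lists in proximal stem-called cells. None of 15 hypoxia-inducible genes (median 0.04), 9 glucocorticoid-inducible genes (median 0.48) or 15 genes of dissociation stress (median 0.22) passed by edgeR. At an unadjusted p under 0.05 there were 0, 2 and 0 genes. Both of the 2 were lower on the high fat diet, namely the clock gene Per1, at 10.9 ± 1.81 CPM on the high fat diet and 24.8 ± 0.792 CPM on the control diet, and Tsc22d3. The genes of these lists with the highest levels were Ldha (0.04, SE 0.24), Dusp1 (0.69, SE 0.88) and Jun (0.81, SE 0.68).

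**Figure D4:**
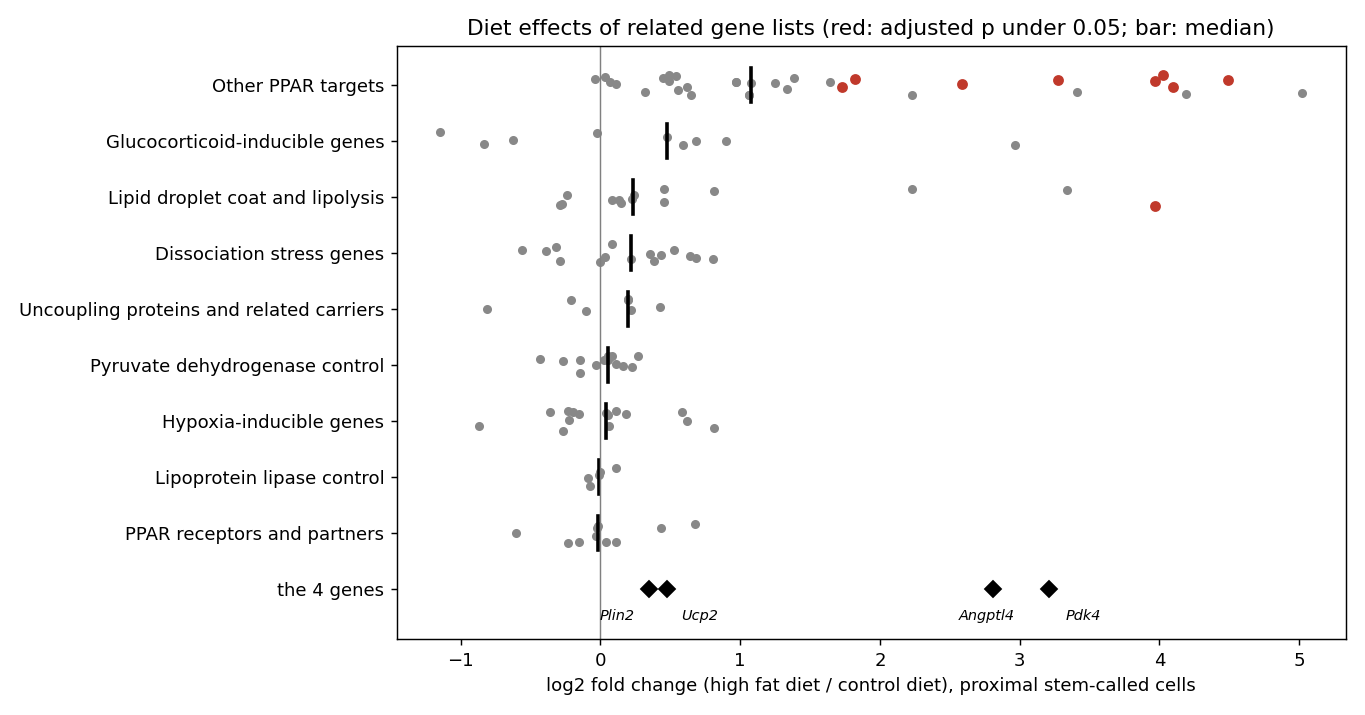
Fitted log2 fold changes of high fat over control diet in proximal stem-called cells (horizontal axis) for the genes of each list, with grey points for genes that did not pass, red points for genes with an adjusted p under 0.05, a black bar at each list's median and diamonds for the 4 genes. The list of other PPAR targets has a median of 1.07, and Angptl4 and Pdk4 lie among its upper values. All lists were chosen with earlier results of these data known.

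The genes whose levels ran most like the 4 genes were sought over the 15 stem-called sums. These are correlations of log2(CPM + 1) over samples that come from 5 mice and share organ and depth, and they are given as a description. Angptl4 was most like Ehhadh, a peroxisomal enzyme of fat oxidation (r = 0.945), Prpsap1 (0.921) and Decr1, a mitochondrial enzyme of fat oxidation (0.918). Pdk4 was most like Vwa8 (0.930), Crot, a peroxisomal carnitine transferase (0.919), and Ech1, an isomerase of fat oxidation (0.895). Plin2 was most like Slc16a13 (0.873), Elmod3 (0.870) and Asnsd1 (0.866), and Ucp2 most like Eci2 (0.902), Acadvl (0.900) and Acot1 (0.881), which handle fatty acyl-CoA. Among the 4 genes themselves r lay between 0.629 and 0.803.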

How the data were processed

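Per the labels' protocols, the libraries were made by Seq-Well with an added step for the second strand, a method that captures the RNA of single cells in an array of wells. The deposited values are raw UMI counts per gene and cell, and the genome build was mm10, per the submitters' processing notes. The aligner and counting tool are not given in the sources used here. The authors' cell table gives diet, organ, mouse and stem call. It numbers the control mice 1 and 3 where the titles have 1 and 2, so its mouse 3 was taken as mouse 2 by elimination. No filter on cells was added, and no column of per-sample values was left out (0 columns). Of 18898 barcode sequences, 16 occurred in more than 1 sample.

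Within each sample, UMIs of stem-called and of uncalled cells were added up. The 15 sums of each population were fitted in edgeR 4.0.16 (R 4.3.3; quasi-likelihood F test, TMM scaling, filterByExpr by group) with 6 groups of organ and diet, and p-values were adjusted by Benjamini-Hochberg over all genes tested. Stem-called and uncalled sums were compared in 1 model of all 30 sums with the library as a block. Standard errors were taken as the absolute log2 fold change over the square root of F. DESeq2 1.42.0 was an alternative. The fit was tested on simulated data. CPM divides by all UMIs of a sum. The mouse is the replicate, and cells are not replicates.

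Clusters were rebuilt with scanpy 1.11.5 and leidenalg 0.10.2 from 2000 variable genes (without the 4 genes, Lgr5 and eGFP), 30 principal components, 15 neighbours and resolution 1. A cluster was named after the type for which most markers reached 2 times their level in other cells, with 10 CPM added to both and at least 3 such markers, and was left unnamed where its 10 leading genes held more markers of another type, or where it was shallow and they held none of its own. Class sums needed at least 20 cells. Scrublet called 105 doublets (0.555%), which were kept. For thinned shares and for the remade stem call, 961 cells under 3000 UMIs were left out. Fits with the remade call used the thinned counts as well as the new call.

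Members of each list were named where they passed, up to 6 by adjusted p, or where they had the 2 highest levels. A gene that the rule names is not reported here. Some named genes fall outside this rule and were chosen after their values were seen, namely Ppard, Pdk1, Lpl, Per1 and Tsc22d3. The 4 genes and all lists were chosen with earlier results of these data known. Gene positions and promoter windows are from RefSeq on GRCm38.p6.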

Additional observations from a re-analysis of the deposited data

How the results depend on the processing

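The mouse carries the replication here, with 3 mice against 2, so the p-values rest on 5 animals. In the colon, Angptl4 rests on 9 and 6 counts in stem-called cells on the high fat and control diet, and in the distal part Pdk4 rests on 2 (stem-called) and 3 (uncalled) counts on the control diet. Libraries differed in depth within both diets, and libraries listed at 0 give no limit on a level. The part of free RNA in levels by cell class was not tested. Gene counts below are edgeR calls at an adjusted p of 0.05 unless DESeq2 is named. The remade call stands for counts thinned to 3000 UMIs per cell, with the stem call taken from them. The depth term marks only the deeper pair, high fat diet mouse 3 and control mouse 2. For diet in proximal stem-called cells 15 genes passed, against 40 by DESeq2, 31 with no filter on low counts, 7 with the stem call remade at 3000 UMIs, 33 with depth set as a term, 24 from the organ's samples alone and 4 to 17 when a mouse was left out. For proximal uncalled cells 12 passed, against 58 by DESeq2, 23 with the depth term, 26 from the organ alone and 1 to 10 without a mouse. In distal stem-called cells 1 passed, against 9 by DESeq2, 3 with no filter, 6 with the remade call, 3 with the depth term, 0 from the organ alone and 0 to 1 without a mouse. In distal uncalled cells 1 passed, against 15 by DESeq2, 0 without TMM scaling, 0 with the remade call, 0 from the organ alone and 0 without any mouse. In the colon 0 passed, with 5 by DESeq2 in uncalled cells and 0 to 1 without a mouse in stem-called cells.

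Whether the mouse numbers of the labels pair mice across diets could not be told. Deviations of same-numbered mice from their group means correlated at 0.281 and 0.0489 in the proximal part and 0.292 and 0.0396 in the distal part. In the colon they correlated at 0.31 and -0.00986. The 2 control mice deviate by equal and opposite amounts, so these correlations cannot decide on a pairing. A replicate block on the label numbers was fitted as an alternative. With that replicate block the diet counts were 49 (proximal stem-called), 33 (proximal uncalled), 9 and 4 (distal), 10 (colon uncalled) and 1 for the diet effect of the proximal minus the distal part, and Angptl4 passed in both proximal populations (3.31, adjusted p = 0.00292; 3.75, adjusted p = 0.0306). By the numbers of the cell table, high fat diet mouse 3 and control mouse 2 correlated at 0.307, 0.26 and 0.31, and that replicate block, chosen after seeing the data, gave 50, 29, 2, 2 and 1 for the same comparisons other than the colon. The organ contrasts with the mouse as replicate block gave 1336 genes for proximal minus distal, against 674 without it (305 to 564 without a mouse, 157 with the remade call). For colon minus small intestine the count was 2225, against 3281 with the mouse as replicate block and 682 with the remade call. For stem-called minus uncalled cells the counts were 4525, 5444 and 5587 in proximal, distal and colon samples, against 894, 1618 and 2085 with no replicate block, 1614, 2905 and 1259 with the remade call, and from 2505 to 4528, 2622 to 5065 and 2295 to 5305 without a mouse. The tests of a difference in diet effect called 0 genes. For proximal minus distal there were 4 by DESeq2, 8 with no filter, 2 with the remade call and 0 to 1 without a mouse. For stem-called minus uncalled cells there were 1 by DESeq2 and 5 with the remade call in proximal, 20 in distal with the remade call and 1 in colon without doublets, and 0 to 1, 0 to 5 and 0 to 5 without a mouse.

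The 4 genes' log2 values of high fat over control diet changed sign in some comparisons. Ucp2 in distal uncalled cells turned to -0.000 by DESeq2, -0.002 with the depth term, -0.003 from the organ alone and -0.030 with the cell table block, and ran from -0.023 to 0.035 without a mouse. Plin2 turned to -0.000 with the remade call in distal stem-called cells and ran from -0.224 to 0.331 there and from -0.028 to 0.351 in distal uncalled cells without a mouse. In colon stem-called cells Angptl4 turned to -0.071 by DESeq2 and -0.172 with the remade call, and Pdk4 to -1.147 with the remade call. Without a mouse, the Angptl4 range there was -1.252 to 5.964, the upper value set against a control sum of 0 counts and so no size. The other ranges there were -0.294 to 4.141 for Pdk4, -0.090 to 0.144 for Plin2 and -0.033 to 0.280 for Ucp2. In colon uncalled cells Angptl4 turned to -0.503 with the remade call, and the ranges without a mouse were -1.463 to 0.836 for Angptl4 and -0.766 to 0.159 for Plin2. The difference in diet effect between the proximal and distal part turned to -2.660 for Angptl4 with the remade call. That between stem-called and uncalled proximal cells turned to 0.158 for Pdk4 by DESeq2, with a range of -0.959 to 1.740 for Pdk4 and -0.005 to 0.183 for Ucp2 without a mouse. The cause was not tested. Of the 4 genes' values counted under the alternatives, 520 counted as kept, 19 newly passed the threshold, 21 no longer passed it and 25 turned. The tally leaves out Angptl4, Pdk4 and Plin2 for stem-called minus uncalled cells. It also leaves out the distal and colon differences in diet effect between stem-called and uncalled cells. A fit counted as kept where direction and side of the threshold stayed. Ratios within the deeper pair or the other 3 mice have no test. They counted as kept within 1 SE of the fitted value, even where the sign differed, and 14 moved by more. Angptl4 in colon stem-called cells, for example, was at 0.03 in the fit and -0.84 among the other 3 mice. Leaving out doublets kept 129 means by cell class and group within 1 SD and moved 3 beyond it.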
